A study of Mus musculus with 5 samples.

Results

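The cells described here are C1q-high resident-like macrophages of the mouse kidney, 798 of the 79202 barcodes kept in the series. The name is a label for the rule below, and whether the cells were resident was not tested. A barcode was kept with at least 500 unique molecular identifiers (UMIs, each counting 1 captured transcript), at least 200 genes and at most 25% of its UMIs on mitochondrial genes. A member had in addition at least 6 UMIs, and at least 0.3% of its UMIs, on C1qa, C1qb and C1qc together. Members were limited to 1 UMI of Gpnmb, Ly6c2 and Lrp2 and to 0 UMIs of Arg1. All of these limits use measured counts, so the levels of these 7 genes describe the choice of the cells and are not findings.

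The study followed kidney inflammation after unilateral ischemia-reperfusion (UIR), in which the left renal pedicle of male C57BL/6J mice aged 6 to 8 weeks was clamped for 35 min. Its 5 samples were labelled Sham and AKI (acute kidney injury) on day 1, day 3, day 14 and day 28. Each kidney sample came from 3 mice, and dissociated cells were captured with 10x 3′ chemistry. The counts carry a library number from 1 to 5 that the labels tie to no condition, so the libraries are named by number, all values are either pooled or per library, and no test was run across libraries, which come from different conditions and are not replicates of a group.

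Resident macrophages take up dying cells and debris, and in the kidney they lie along the tubules and capillaries. C1q, the recognition part of the classical complement pathway, is built from the chains C1qa, C1qb and C1qc and is made mainly by macrophages rather than by monocytes. MHC class II molecules (H2-Aa, H2-Ab1 and H2-Eb1, with the invariant chain Cd74) present peptides to CD4 T cells.

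The chains of C1q lie next to each other on chromosome 4 of GRCm38 (C1qb at 136880129 to 136886187 and C1qc at 136889804 to 136893065, both on the minus strand), and the class II genes lie on chromosome 17. These spans are from GENCODE. The C1qc window below overlaps its span, since the RefSeq start lies inside it. The sequence of 250 bases before the RefSeq start (GRCm38.p6) is shown for 2 of the chains that chose the members and for 2 class II genes, whose levels by library are a main result. Capitals mark GAGGAA (a core bound by the macrophage factor PU.1, on either strand) in the C1q promoters, and the X box (CTNGCAAC), the CRE (TGACGTCA) and the Y box (CTGATTGG) in the class II promoters.
C1qb, chr4:136886201-136886450, minus strand: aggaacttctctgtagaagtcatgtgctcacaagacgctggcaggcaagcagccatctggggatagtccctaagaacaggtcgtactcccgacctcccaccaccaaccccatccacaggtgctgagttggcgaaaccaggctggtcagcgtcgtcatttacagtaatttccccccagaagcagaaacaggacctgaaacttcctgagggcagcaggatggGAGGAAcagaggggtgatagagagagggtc
C1qc, chr4:136892915-136893164, minus strand: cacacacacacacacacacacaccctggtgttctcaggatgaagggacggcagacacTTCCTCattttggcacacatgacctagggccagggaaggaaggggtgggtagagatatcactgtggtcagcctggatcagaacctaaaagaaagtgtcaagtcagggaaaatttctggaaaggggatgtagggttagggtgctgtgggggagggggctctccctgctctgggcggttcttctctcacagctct
H2-Aa, chr17:34287824-34288073, minus strand: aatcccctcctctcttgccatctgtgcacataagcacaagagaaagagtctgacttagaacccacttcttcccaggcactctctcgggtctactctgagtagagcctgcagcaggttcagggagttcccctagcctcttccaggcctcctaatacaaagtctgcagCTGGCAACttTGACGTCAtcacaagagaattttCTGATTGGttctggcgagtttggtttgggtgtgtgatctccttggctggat
H2-Eb1, chr17:34305617-34305866, plus strand: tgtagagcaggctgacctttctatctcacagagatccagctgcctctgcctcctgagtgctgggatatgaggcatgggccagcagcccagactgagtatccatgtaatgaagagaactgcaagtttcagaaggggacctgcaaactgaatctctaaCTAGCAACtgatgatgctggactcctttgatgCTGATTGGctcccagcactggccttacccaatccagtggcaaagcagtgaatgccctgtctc
Both class II promoters held the X box followed by the Y box in the same order, at 84 to 77 and 51 to 44 bases before the start in H2-Aa and at 94 to 87 and 62 to 55 bases in H2-Eb1. H2-Aa also held the CRE between them, at 74 to 67 bases. Among 32851 promoter windows of the same length, read on both strands, 2.84% held the X box, 3.83% the Y box, 1.55% the CRE and 23.3% GAGGAA. The 4 motifs do not overlap in these windows. Of 8 member promoters looked for, 4 were matched, and C1qa, H2-Ab1, Cd74 and Vcam1 are named only.

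Libraries 1 to 5 held 267, 262, 125, 94 and 50 members. As a share of the kept barcodes of each library, members made up 2.66% (95% interval 2.36 to 3.00), 2.32%, 0.369%, 0.833% and 0.392%. Libraries 1 and 2 had the largest shares. Libraries 3 (0.308 to 0.440) and 5 (0.291 to 0.517) had the smallest, with intervals that overlap. These intervals are exact (Clopper-Pearson) and, like all others below, cover counting error only, not differences between mice or cells. Kept barcodes were not further called as cells, so shares depend on how many shallow barcodes a library holds. With at most 10% mitochondrial UMIs the shares were 7.02%, 4.52%, 0.793%, 1.55% and 0.909%, each over 1.5 times higher. With at least 1000 UMIs a barcode, library 3 (0.659%) stood above library 5 (0.479%), and with stricter C1q limits below it (0.260% and 0.353%).

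Median depth of the members was 3371 UMIs over 1243 genes, and their UMIs summed to 3311892. By library the median was 3363, 3410, 3527, 4248.5 and 1683.5 UMIs. Library 5 was the shallowest, and its 50 members held 88522 UMIs in all, so that a gene with 0 UMIs there can still be present at up to 33.9 CPM (the summed UMIs of a gene, scaled to a total of 1000000 UMIs). Of the members, 36 also held UMIs that mark another lineage, 23 of them in library 1, 7 in library 2, 1 in library 3, 5 in library 4 and 0 in library 5. The lineages counted were T and NK, B, endothelial, fibroblast, distal tubule and neutrophil. Proximal tubule genes were not counted, and 646 members held at least 3 UMIs of that list. The 36 members were kept, since no doublet caller was run. Levels by library include them, and values without them are given where a printed level moves by over 1.5 times or an order changes. No barcode sequence occurred in members of more than 1 library, whereas 642 did so among all kept barcodes, and 13 member sequences were also kept in another library.

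Before the limits on Gpnmb, Arg1, Ly6c2 and Lrp2, 1009 barcodes met the C1q limits. Of these, 85 had more than 1 Gpnmb UMI, 105 any Arg1, 7 more than 1 Ly6c2 and 79 more than 1 Lrp2, and a barcode can fail several limits. The 49 members just inside the limit on C1q UMIs (6 to 8) had a median of 765 UMIs and Cd74 at 17373 CPM, and the 59 barcodes just outside it (3 to 5) had 722 UMIs and Cd74 at 9556 CPM. Just above and below the limit of 0.3%, 39 members and 31 barcodes had Cd74 at 10138 and 12069 CPM. Cd74 was thus higher inside the limit on UMIs and lower inside the limit on the share.

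C1qa (ENSMUSG00000036887) stood at 5916, 5300, 3058, 3149 and 5276 CPM in libraries 1 to 5. The 3 chains together made up 1.54%, 1.42%, 0.844%, 0.971% and 1.32% of member UMIs in these libraries, and 1.32% in the pool. Libraries 3 and 4 were lowest for the very genes that chose the cells. Within the chains C1qb held 41.1% of UMIs, C1qa 37.4% and C1qc 21.5%, shares of captured 3′ ends that say nothing of protein.

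The labels name the cell type of every sample as goblet cell, a mucus-secreting cell of other epithelia. Of 6 goblet genes, Muc2, Tff3, Fcgbp, Clca1 and Zg16 had 0 UMIs in the members and Spdef had 1. Of the markers given for these cells, the rule did not use 2. Their levels describe the members, but H2-Eb1 was also high in the dendritic cells below and does not single out macrophages. H2-Eb1 was at 7550 CPM (7457 to 7645) in the members and at 103 CPM in the other 78404 kept barcodes. Vcam1, an adhesion molecule that binds integrins of leukocytes, was at 170 CPM (156 to 184) against 16.9 CPM. Within libraries 1 to 5 Vcam1 was 6.53-, 4.04-, 9.22-, 16.6- and 279-fold higher, the last on 47 UMIs in the other barcodes. Vcam1 was low, and most members had no UMI of it.

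To compare detection at 1 depth, 709 members were thinned to 1000 UMIs each, and 89 shallower ones were left out. An H2-Eb1 UMI was found in 82.1% (79.1 to 84.8) of thinned members and in 1.83% of barcodes with at least 5 Lrp2 UMIs. These are proximal tubule cells, which should lack the transcript, thinned in the same way from a median of 8029 UMIs. Vcam1 was detected in 11.3% (9.05 to 13.8) of thinned members against 0.447% of tubule barcodes, and in 21.7% of members without thinning. Injured tubule cells can make Vcam1 themselves, so for this gene the tubule share is not a measure of background. Cx3cr1, the fractalkine receptor of resident macrophages, was detected in 21.9% against 0.0653%, and in 48.6% without thinning. For Adgre1, which encodes F4/80, the shares were 22.8%, 0.0603% and 50.5%. All 4 shares lay above those in tubule barcodes, and those of Vcam1, Cx3cr1 and Adgre1 depended strongly on depth.

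Ccr2, the monocyte chemokine receptor, was detected in 16.2% (13.6 to 19.1) of thinned members, against 0.116% of tubule barcodes and 31.7% of unthinned members. Trem2, a lipid receptor of macrophages, was detected in 17.2% (14.5 to 20.2) of thinned members, 0.106% of tubule barcodes and 38.8% of unthinned members. Clec4e, which encodes the receptor Mincle that the study is about, was detected in 4.51% (3.11 to 6.31) of thinned members, 0.196% of tubule barcodes and 11% of unthinned members. Clec4e was thus above the tubule background but found in few members. Tnf, the gene of tumor necrosis factor, was detected in 17.8% (15 to 20.8), with 0.0653% in tubule barcodes and 35.5% without thinning.

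Against all other kept barcodes, a mixture of kidney cells, the members were higher in most class II, Fc receptor, chemokine and interferon-induced genes. Of 7999 genes with a mean of at least 10 CPM over both groups, 18.1% were at least 2-fold higher in the members and 26.8% at least 2-fold lower, with a median log2 ratio of −0.21. C1q and the genes limited by the rule set part of this contrast, and since the cells were chosen on these counts it is a description. A gene scarce in the other barcodes passes the filter only through the members and can only be called higher, which raises the list counts below. Of 11 tested class II genes, 11 were higher (median log2 ratio 5.61). Of 15 resident macrophage genes, 12 were higher and 1, the transcription factor Maf, was lower (median 5.10). Of 7 Fc receptor and signalling genes, 7 were higher (median 5.11), of 15 chemokines 14 (median 4.64), and of 12 interferon-induced genes 12 (median 3.12).

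Among genes with a mean of at least 50 CPM, Ccl8, a chemokine for monocytes and T cells, had the highest pooled ratio. It was at 192 CPM against 0.503 CPM (log2 8.58). Within libraries 1 to 4 its log2 ratio was 8.33, 7.21, 7.93 and 7.65, each below the pooled value, so the pooled rank also carries the unequal shares of members in the libraries. Lilra5, an activating Ig-like receptor, was at 103 against 0.302 CPM, with log2 ratios of 7.62, 7.62, 7.0, 7.68 and 12.51 within libraries 1 to 5, the last on 3 UMIs in the other barcodes. Ms4a7, a membrane protein of tissue macrophages, was 144-fold higher in the pool, with log2 ratios of 7.11, 6.44, 6.61, 5.86 and 12.52 within the libraries. Adgre1 was 102-fold higher, with 6.92, 6.17, 5.63, 6.04 and 11.81. For both, library 5 stood far above the others, on 5 and 4 UMIs in its other barcodes. Cd72 was 138-fold higher, Cx3cr1 108-fold and Mrc1, the mannose receptor, 95.9-fold. Their log2 ratios in libraries 1 to 4 ran from 6.33 to 6.64, from 6.32 to 6.98 and from 5.91 to 6.95, and library 5 was the highest for each, at 9.83, 10.22 and 8.55. At a mean of at least 50 CPM, the genes furthest below were tubule genes, with Gm45792 37.8-fold and Nr1h4, the bile acid receptor, 22.7-fold lower. Of other cell markers, 3 of 3 fibroblast genes (median 3.60) and Cd79b, a B cell receptor chain, were higher. The fibroblast list summed to 423 CPM in members of library 1 and to at most 2.37 CPM in those of libraries 2 to 5. It was at 13.6 CPM in the other barcodes, and 12 members held at least 3 of its UMIs. All 7 tested proximal tubule genes were lower (median log2 ratio −3.58). The summed level of that list was 4384, 4037, 6251, 4270 and 14211 CPM in members of libraries 1 to 5, highest in library 5, against 31995 to 60652 CPM in the free RNA of the same libraries (barcodes with at least 100 and fewer than 500 UMIs).

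Between libraries the members differed widely. Of 1240 genes at a mean of at least 100 CPM, 54.1% (671) were at least 2-fold higher in the highest library than in the lowest, and 434 were without library 5, whose few UMIs make its values the least certain. The median log2 difference of highest over lowest library was 1.05. Of 9 class II genes 8 passed 2-fold (median 1.86), of 15 resident macrophage genes 12 (median 1.55) and of 14 chemokines 14 (median 3.20). Library 5 was lowest for Ccl2, Ccl7, Ccl8, Ccl9 and Cxcl1, on at most 2 UMIs each, while Ccl4, Ccl12 and Pf4 were lowest in other libraries. Counts by list without library 5 are not given. Lysosomal genes, with 8 of 17 (median 0.94), and Fc receptors, with 3 of 6 (median 0.98), were near or below the share over all genes. The conditions of the libraries are not given, so a difference between libraries can be one of condition, of mouse or of capture, and these cannot be told apart.

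Class II was high in libraries 1, 2 and 5. Cd74 was at 36575, 22726, 7425, 9986 and 36703 CPM in libraries 1 to 5. H2-Aa was at 12336, 8568, 2554, 3281 and 13420 CPM. H2-Eb1 was at 10509, 7898, 2074, 2990 and 13940 CPM. For each of these genes library 3 was lowest and library 4 next to it, and libraries 1, 2 and 5 were each above both. Without members of other lineages library 1 stood above library 5 for Cd74 (43256 CPM) and H2-Aa (14653 CPM) but not for H2-Eb1 (12560 CPM), so the order of libraries 1 and 5 depends on those members. H2-Ab1 was at 10515, 9080, 2650, 3113 and 13217 CPM, 4.99-fold higher in library 5 than in library 3. The intervals of libraries 1 and 5 overlapped for Cd74 (36239 to 36913 and 35451 to 37987 CPM) but not for H2-Eb1. Ciita, the coactivator that drives class II genes, was at 74.9, 88.8, 34.7, 71.0 and 147 CPM, lowest in library 3 and highest in library 5. Free RNA held Cd74 at 1190 CPM in library 1 and 39.9 CPM in library 5, far below the members in both. Immediate early genes, which also respond to cell dissociation, moved in a like way, with a summed level of 12929, 14049, 9222, 9631 and 17261 CPM. Of 13 tested immediate early genes 11 were at least 2-fold apart between libraries, against 54.1% of all tested genes. Their part in the class II difference was not tested.

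**Figure D1:**
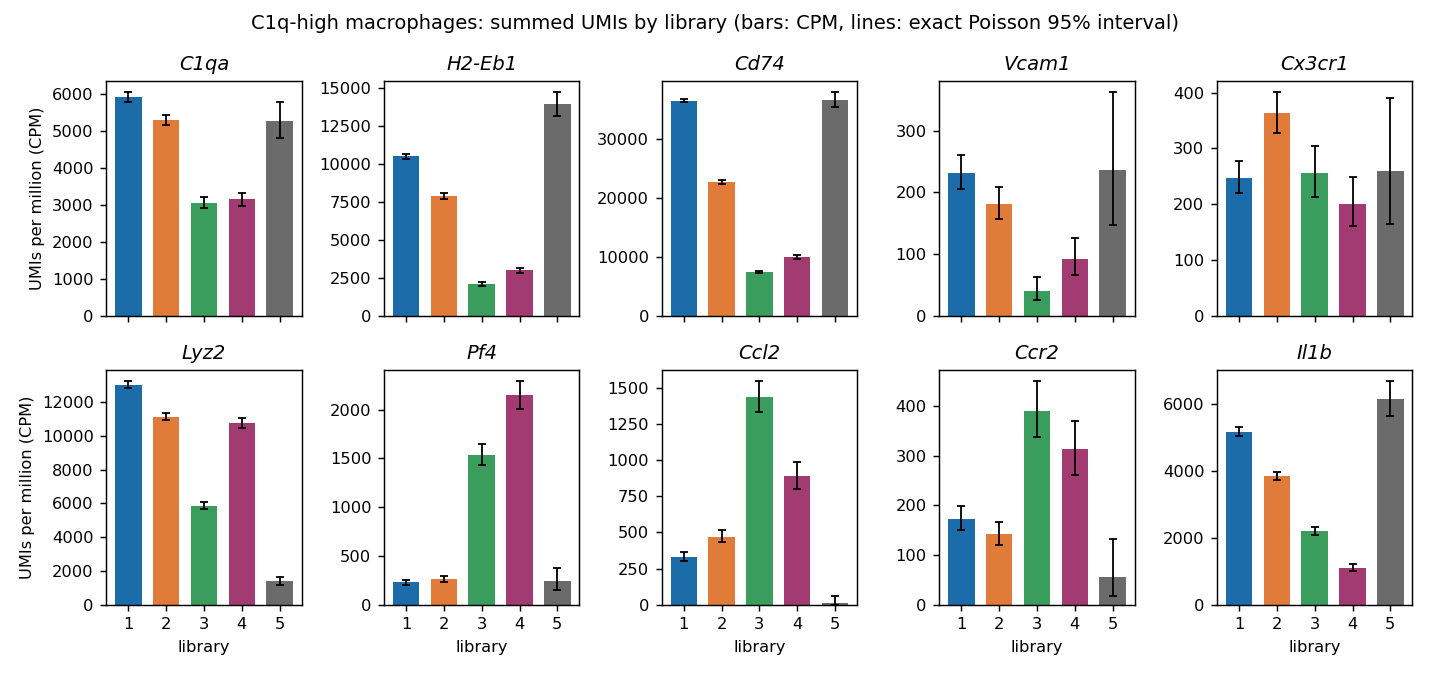
Summed UMIs of 10 genes in the members, as CPM (vertical axes, linear, each from 0) for libraries 1 to 5 (horizontal axes), with exact Poisson 95% intervals as lines. H2-Eb1, Cd74 and Vcam1 were lowest in library 3, Pf4 and Ccr2 stood highest in libraries 3 and 4, and Lyz2 and Ccl2 were lowest in library 5.

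The spread was also seen within libraries. With each member thinned to 1000 UMIs, the sum of H2-Aa, H2-Ab1, H2-Eb1 and Cd74 had a median of 94.5, 59.5, 7, 12 and 78.5 UMIs in libraries 1 to 5. The share of members with fewer than 5 class II UMIs was 2.07%, 9.26%, 44.4%, 41.2% and 0%. Libraries 3 and 4 therefore held both members nearly without class II and members with more than 40 UMIs (90th percentiles of 41.4 and 48.2), while in library 5 the 10th percentile was 52 UMIs. In the pool of 709 members the quartiles were 18, 55 and 88 UMIs, and 52 members had none. The C1q chains varied less, with medians of 18, 15, 7, 9 and 13.5 UMIs, on a measure that the rule limits from below.

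**Figure D2:**
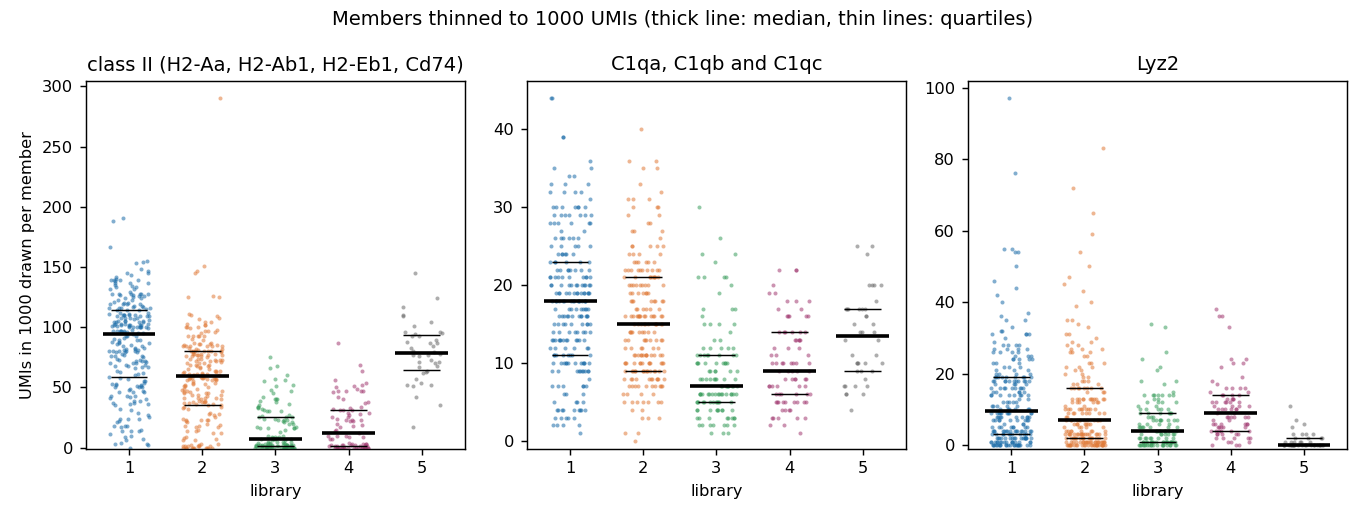
UMIs of the class II genes (left), the C1q chains (middle) and Lyz2 (right) per member after thinning to 1000 UMIs (vertical axes), by library (horizontal axes). Each point is 1 member, thick lines are medians and thin lines quartiles. The class II median was 94.5 in library 1 and 7 in library 3, and the Lyz2 median was 9.5 in library 1 and 0 in library 5.

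Among genes of resident macrophages, Vcam1 was at 232, 181, 40.8, 92.3 and 237 CPM in libraries 1 to 5, on 288, 194, 20, 39 and 21 UMIs. It was highest in libraries 5 and 1, whose intervals overlapped, and lowest in library 3. Cd81, a tetraspanin, was at 1359, 791, 425, 433 and 1333 CPM. Cd72, an inhibitory lectin, was at 499, 329, 155, 154 and 576 CPM. Each of these 3 genes was lower in libraries 3 and 4 than in the others. Cx3cr1 varied less, at 247, 363, 255, 201 and 260 CPM, and was not 2-fold apart between any libraries. Csf1r, the receptor for the survival factor CSF1, was at 489, 646, 378, 426 and 384 CPM, also within 2-fold.

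Lyz2, which encodes lysozyme M, was at 13015, 11122, 5861, 10748 and 1389 CPM. Library 5 was lowest by far, and 24 of its 42 thinned members had no Lyz2 UMI. Apoe, the lipid carrier, was at 18331, 23436, 5139, 17273 and 11771 CPM, lowest in library 3. Trem2 was at 296, 349, 127, 308 and 11.3 CPM, the last on 1 UMI. S100a6, a calcium-binding protein, was at 316, 397, 1286, 996 and 22.6 CPM, the last on 2 UMIs, and at 195 and 287 CPM in libraries 1 and 2 without members of other lineages. S100a4 of the same family was at 114, 207, 931 and 591 CPM in libraries 1 to 4 and had 0 UMIs in library 5. Both S100 genes were highest in library 3. Mmp13, a collagenase, was at 57.2, 75.7, 32.7, 2.37 and 554 CPM, with 49 of its 218 UMIs in the shallow library 5 and 1 in library 4.

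Of 5 monocyte genes tested between libraries, 5 were at least 2-fold apart (median 3.05), against 54.1% of all tested genes. The shallow library 5 was lowest for each, with 0 UMIs of Plac8, Fn1 and Thbs1 set at 3 counts. With all members counted, Fn1 and Msrb1 lay within 2-fold over libraries 1 to 4. Ccr2 was at 173, 142, 390, 312 and 56.5 CPM in libraries 1 to 5. Plac8, a gene of monocytes, was at 45.1, 19.6, 259, 251 and 0 CPM, and at 22.1 CPM in library 1 without members of other lineages. Chil3, which encodes the secreted lectin Ym1, had 122 UMIs in library 3 (249 CPM) and 47 in library 4 (111 CPM) and 0 UMIs in libraries 1, 2 and 5. The 3 genes were thus highest per UMI in libraries 3 and 4, although libraries 1 and 2 held 34 and 27 of the 115 thinned members with a Ccr2 UMI. Libraries 3 and 4 also had the largest shares of members nearly without class II. The resident-like name therefore describes their members less well than those of the other libraries. Thbs1, the matrix protein thrombospondin, was at 55.6, 101, 196, 282 and 0 CPM (22.1 CPM in library 1 without members of other lineages). Fn1, fibronectin, was less far apart in libraries 2 to 4, at 126, 182, 231, 220 and 0 CPM (68.4 CPM in library 1 without those members). Msrb1, a methionine sulfoxide reductase, was at 151, 199, 194, 187 and 22.6 CPM, below its free RNA (226 to 292 CPM) in each library. F13a1, a coagulation factor subunit that the perivascular macrophage list holds, was at 118 and 123 CPM in libraries 3 and 4 and at 2.42, 8.41 and 0 CPM in libraries 1, 2 and 5. In free RNA Chil3 was at 11.9 CPM in library 3 and 4.82 CPM in library 4. Plac8 in free RNA was at 31.3, 37.6, 90.2, 37.9 and 20.8 CPM, highest in library 3 and above the members in libraries 2 and 5. Ly6c2, which the rule limits to 1 UMI, gave 4 UMIs in all, each of them in library 3.

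Chemokines split the libraries in several ways. Ccl2, the main ligand of Ccr2, was at 332, 471, 1433, 890 and 11.3 CPM, on 1 UMI in library 5. Ccl7, another Ccr2 ligand, was at 341, 211, 619 and 395 CPM in libraries 1 to 4 and had 0 UMIs in library 5. Ccl12 was at 363, 276, 568, 556 and 294 CPM. The 3 monocyte attractants were each highest in library 3, though for Ccl12 libraries 3 and 4 were nearly level and are not ranked. Pf4, a platelet-type chemokine also made by tissue macrophages, was at 230, 266, 1537, 2146 and 249 CPM, 9.35-fold higher in library 4 than in library 1. Ccl8 had another order, highest in library 1, at 329, 161, 57.2, 63.9 and 11.3 CPM. Cxcl10, an interferon-induced attractant of T cells, was at 848, 304, 93.9, 251 and 192 CPM, highest in library 1. Ccl4, a macrophage inflammatory protein, was at 4374, 3271, 3995, 1517 and 6981 CPM, lowest in library 4 and highest in library 5.

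Among cytokines, Il1b was at 5176, 3842, 2203, 1102 and 6145 CPM, and its order followed that of class II except that library 4 was below library 3. Tnf was at 373, 234, 272, 80.4 and 113 CPM, highest in library 1 and lowest in library 4. Clec4e was at 24.2, 54.2, 91.9 and 109 CPM in libraries 1 to 4 and had 0 UMIs in library 5, so its order was not that of Tnf. Hmox1, the haem-degrading enzyme, was at 231, 154, 843, 781 and 45.2 CPM, highest in libraries 3 and 4. Genes of the general macrophage program changed little by comparison. Fcer1g, the signalling chain of Fc receptors, lay between 2858 and 3246 CPM, Aif1 between 644 and 802 CPM and Cd68, a lysosomal glycoprotein, between 395 and 531 CPM over the 5 libraries.

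Of 13 perivascular macrophage genes, 6 could be tested against all other kept barcodes, with 4 higher (Mrc1, F13a1, Pf4 and Ccl8), 1 lower (Gas6) and a median log2 ratio of 4.21. Over all tested genes 18.1% were higher. Mrc1 and Ccl8 were scarce in the other barcodes (2.22 and 0.503 CPM). They passed the filter only through the members and could only come out higher, so this count says little about the list. Other resident or perivascular markers gave few UMIs. Folr2, a folate receptor, had 26 and Cbr2, a carbonyl reductase, 54, at 34.7 and 49.0 CPM in library 3 and 16.6 and 40.2 CPM in library 4, and 0 in library 5. Timd4, a receptor for dying cells on long-lived macrophages, had 0 UMIs in 3311892, which allows up to 0.906 CPM. Lyve1 had 12 UMIs, 11 of them in library 3, and Cd163, the haemoglobin scavenger receptor, had 15. Cd209f and Cd209g were found only in library 3, with 23 and 11 UMIs. Marco, a scavenger receptor, gave 47 UMIs, at 42.1 CPM in library 2 and at most 4.08 CPM in the other libraries.

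Some differences between libraries moved with other signals. In library 1 Mgp was at 2378 CPM, and at 11 CPM without its members that held UMIs of other lineages. Sparc there was at 681 CPM and 38.6 CPM without them, and the fibroblast list summed to 423 CPM in library 1 and to at most 2.37 CPM in the others. Spp1, which encodes osteopontin, was at 4794 CPM in members of library 3, where free RNA held it at 22266 CPM. Without members of other lineages Spp1 was at 572, 446, 4252, 661 and 316 CPM. Gm42418, a nuclear transcript that overlaps the ribosomal repeat, was at 218 CPM in library 1 and between 3871 and 10980 CPM in the others, and in free RNA at 887 CPM in library 1 and at 21491 CPM or more in the others. The part of these signals in the other differences between libraries was not tested. Lists of endothelial, T and NK, B, dendritic and erythroid genes summed to at most 71.1 CPM in members of any library, and Ms4a1, which marks B cells, had 0 UMIs. The neutrophil list summed to 22.6, 118, 71.5, 239 and 11.3 CPM.

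The nearest other cells were 35 barcodes that met the same rule except for at least 2 Gpnmb UMIs. They were deeper, with a median of 10030 UMIs, and 6, 12, 1, 16 and 0 of them came from libraries 1 to 5. Of 6871 genes tested, 14.3% were at least 2-fold higher in the members and 5.92% at least 2-fold lower (median log2 ratio 0.12). Of 12 class II genes 9 were higher and 0 lower in the members, with a median of 2.18. Of 15 resident macrophage genes, 7 were higher and 1, Apoe, was lower (median 0.85). Of 13 lipid-associated genes, 13 were lower in the members (median −1.80), and 1 of them is Gpnmb itself, whose difference the rule sets. Of 17 lysosomal genes 8 were lower and 0 higher (median −1.0).

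Cd74 was at 24401 CPM in the members and 4332 CPM in the Gpnmb-positive barcodes (log2 ratio 2.49, interval 2.43 to 2.56). H2-Eb1 was at 7550 against 1177 CPM (2.68, 2.55 to 2.82). Since no library held 20 barcodes of both groups, the ratios also carry the difference in libraries. Within library 2, with 12 Gpnmb-positive barcodes, the log2 ratio of H2-Eb1 was 2.71 (2.51 to 2.93), and within library 4, with 16, it was 6.67 (5.45 to 8.30) on 5 UMIs. The class II difference was therefore present in both libraries. Vcam1 was at 170 against 15 CPM, a log2 ratio of 3.50 (2.37 to 4.96) on 6 UMIs in the Gpnmb-positive barcodes, and all 6 were in library 4. Within that library the ratio was 1.39 (0.14 to 2.92). Within library 2, where the Gpnmb-positive barcodes had 0 UMIs, it was 3.25 with 0 set at 3 counts (exact lower limit 2.93). Ccr2 was at 210 against 17.5 CPM (3.59, 2.54 to 4.91), and Cd72 at 351 against 57.4 CPM (2.61, 2.02 to 3.28).

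On the other side, Fabp5, a fatty acid carrier, was at 243 CPM in the members and 5038 CPM in the Gpnmb-positive barcodes, 20.7-fold lower. Within libraries 2 and 4 its log2 ratio was −4.53 and −3.43. Ctsd, the lysosomal protease cathepsin D, was 11.2-fold lower (1065 against 11931 CPM). Its ratio was −2.82 in library 2 and −3.85 in library 4. Trem2 was at 282 against 1392 CPM, with ratios of −2.14 and −2.21 in these libraries, and Apoe at 17719 against 50860 CPM, with −1.26 and −1.72. Lgals3, which encodes galectin-3, was at 1211 against 5945 CPM. C1qa, which both groups were chosen for, was at 4924 against 3833 CPM.

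Of 16 chemokines 8 were higher in the members and 1, Ccl6, was lower (median 0.96). Cxcl10 was 20.8-fold higher, and 9 UMIs of it were found in the Gpnmb-positive barcodes. Its log2 ratio was 5.58 (3.09 to 10.88) within library 2, on 1 UMI, and 2.42 (1.39 to 3.67) within library 4. Of 12 interferon-induced genes 10 were higher (median 1.99), but 6 of 10 when library 1 was left out. Isg15, a ubiquitin-like interferon product, had a log2 ratio of 1.87 (1.24 to 2.57), within library 2 of 3.32 (1.44 to 6.38) on 2 UMIs, and within library 4 of 0.80 (−0.22 to 1.95), an interval that includes 0. Il1b was at 3811 against 721 CPM and Tnf at 269 against 64.8 CPM (log2 ratio 2.05, 1.49 to 2.67). For Clec4e the ratio was −0.56, with an interval of −1.11 to 0.03 that includes 0. The 2-fold rule also calls some genes from counting error alone in groups this small. Tubule genes moved with the comparison, with 7 of 7 proximal tubule genes higher in the members (median 1.68) and a summed level of 4796 against 1574 CPM. The distal tubule and fibroblast lists were higher as well, in 3 of 3 genes each. Few members carried the latter 2 lists: of 798, 14 held at least 3 UMIs of the distal tubule list and 12 of the fibroblast list. Most carried the proximal tubule list, with at least 3 UMIs in 646 members. The part of these tubule and fibroblast signals in the other differences was not tested. Mgp and Bgn were also higher in the pool. The Gpnmb-positive barcodes had 0 UMIs of Bgn, so its log2 ratio is a lower bound. Without members of other lineages this bound fell to −0.18, which gives no direction.

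**Figure D3:**
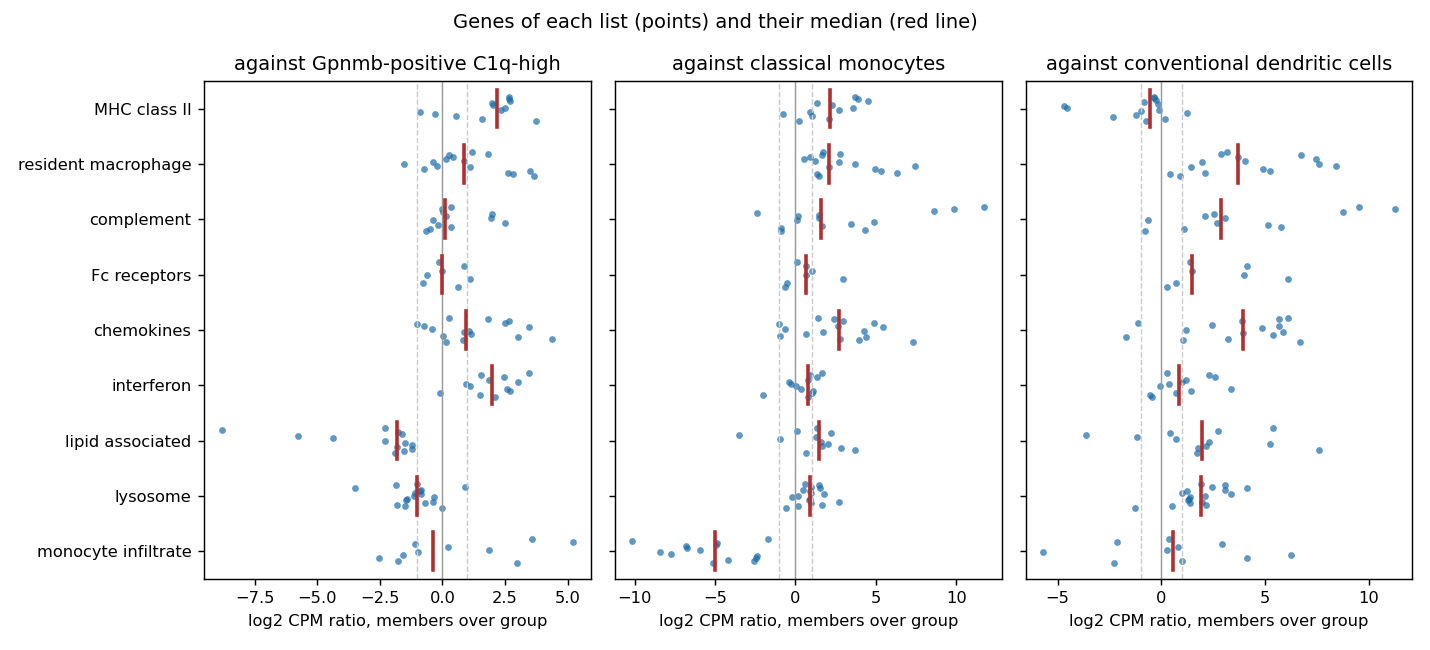
Log2 CPM ratio of the members over Gpnmb-positive C1q-high barcodes (left), classical monocytes (middle) and conventional dendritic cells (right) for each tested gene (points) of 9 lists, with the list median in red and dashed lines at 2-fold. The class II median was 2.18, 2.16 and −0.56 against the 3 groups. All 13 lipid-associated genes lay below −1 against Gpnmb-positive barcodes, and they include Gpnmb, whose difference the rule sets. The complement list holds the C1q chains, which the choice of the groups used.

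Against 165 classical monocytes (at least 2 Ly6c2, 2 Lyz2 and 1 Plac8 UMIs and at most 1 UMI of the C1q chains, so that these genes differ by choice), the members carried more class II, resident macrophage and chemokine transcripts. The monocytes had a median of 3981 UMIs, and 106 of them were in library 3. Of 7226 genes tested, 10.2% were at least 2-fold higher in the members and 9.09% lower (657 genes, median −0.09), and without library 3 the lower genes numbered 1037. Of 15 resident macrophage genes 13 were higher and 0 lower (median 2.07), of 12 class II genes 9 were higher (median 2.16), and of 16 chemokines 12 (median 2.69). Of the 14 monocyte genes, 2 of which chose the group, 14 were lower (median −5.02).

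Ms4a7 was at 762 CPM in the members and 4.33 CPM, on 3 UMIs, in the monocytes (log2 ratio 7.46, 5.91 to 9.74). Pf4 was at 680 against 4.33 CPM (7.30, 5.75 to 9.57). Vcam1 had 0 UMIs in the monocytes and was at least 39.2-fold higher in the members, and Ccl8, also at 0, at least 44.4-fold. H2-Eb1 was 22.9-fold higher, with log2 ratios of 4.14, 4.96 and 3.28 within libraries 2, 3 and 4, which held at least 20 barcodes of both groups. Mrc1 was at 213 against 8.65 CPM, and Axl, a receptor for dying cells, at 186 against 10.1 CPM. H2-Eb1 was thus at least 2-fold higher in each of these libraries.

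Ccr2 was at 210 CPM in the members against 685 CPM (log2 ratio −1.71, −1.88 to −1.54). Within libraries 2, 3 and 4 it was −2.41, −0.94 and −0.80, so that it passed 2-fold in library 2 alone. Fn1, fibronectin, was 5.22-fold lower, with −2.10, −2.15 and −1.24 within the libraries. Clec4e was at 54.0 against 415 CPM, 7.68-fold lower in the members, with −2.85, −2.30 and −1.81 within the libraries. Tnf went the other way, at 269 against 70.6 CPM, with 2.35, 1.98 and 2.70 within the libraries, on 4, 32 and 1 UMIs in the monocytes. The Mincle transcript was thus lower in the members in each library compared, while the Tnf ratio rests on few UMIs outside library 3. Il1b was at 3811 against 1771 CPM in the pool, but within libraries 2, 3 and 4 its ratio was 0.47, 0.57 and −0.59. Interferon-induced genes had 4 higher and 1 lower of 12, with 2 higher without library 1, and 0 higher and 3 lower of 13 without library 3. The monocyte barcodes also held Ighg1, an antibody heavy chain, at 4227 CPM and 4 of 4 tested endothelial, 4 of 4 neutrophil and 2 of 2 dendritic genes above the members. The neutrophil list summed to 6931 CPM in the monocytes and 87.9 CPM in the members. It shares S100a8 and S100a9 with the monocyte list, so its level in the monocytes need not come from other cells. In turn 3 of 3 distal tubule and 3 of 3 fibroblast genes were higher in the members, few of which held 3 or more UMIs of either list. The part of these in the ratios was not tested.

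Against 81 conventional dendritic cells (at least 1 Flt3, 5 H2-Ab1 and 5 Cd74 UMIs and at most 1 UMI of the C1q chains), the members were within 2-fold for most class II genes and apart in macrophage genes. The dendritic cells had a median of 5239 UMIs. Of 7015 genes tested, 17.1% were at least 2-fold higher in the members and 8.37% lower (median 0.12). Of 14 class II genes 1, the protease Ctss, was higher and 4 were lower (median −0.56). H2-Eb1 was at 7550 against 9131 CPM, a log2 ratio of −0.27 (−0.32 to −0.23), and within libraries 1 and 2 of 0.10 and −0.26. The dendritic cells were chosen on class II counts, so their level is high by choice. H2-Oa and H2-Ob, which encode a modulator of peptide loading, were at 8.45 and 5.43 CPM in the members against 216 and 127 CPM.

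Of 15 resident macrophage genes 13 were higher in the members (median 3.67), of 15 chemokines 13 (median 3.95) and of 17 lysosomal genes 15 (median 1.91). Markers of other cells moved too, with 4 of 7 proximal tubule (median 1.17), 3 of 3 distal tubule (median 3.19) and 3 of 3 fibroblast genes (median 3.51) higher in the members. Few members held 3 or more UMIs of the distal tubule or fibroblast list, whereas 646 held 3 or more of the proximal tubule list. Klrd1, a receptor of NK cells, was at 292 CPM in the dendritic group and 1.81 CPM in the members. The part of these signals in the other ratios was not tested. Apoe was 194-fold higher, at 17719 against 91.4 CPM. Adgre1 was at 239 against 2.23 CPM, on 1 UMI in the dendritic cells (log2 ratio 6.75, 4.26 to 12.05). Csf1r was 12.8-fold higher, with log2 ratios of 4.14 and 4.05 within libraries 1 and 2. Fcgr1, the high-affinity IgG receptor, was at 193 against 11.2 CPM. Tnf was at 269 against 8.92 CPM, on 4 UMIs, whereas Il1b was at 3811 against 3085 CPM and within 2-fold. The dendritic cells were higher in Ccr7, the lymph node homing receptor (4.53 against 747 CPM), in Fscn1 (1.21 against 210 CPM), and in the chemokines Ccl22, Ccl5 and Cxcl9, of which Cxcl9 had a log2 ratio of 0.36 within library 1 and −2.63 within library 2. Of the transcription factors, Irf8, Irf4, Batf3, Zbtb46 and Bhlhe40 were at least 2-fold lower in the members, and 7 of 15 were higher. The ratio of Irf8 was −1.05 in the pool and −0.76 within library 2.

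Among the members themselves, Vcam1 was detected in 80 of the 709 thinned cells, 35, 30, 4, 6 and 5 of them in libraries 1 to 5. Of 1214 genes at a mean of at least 100 CPM, 4.70% were at least 2-fold higher in the Vcam1-detected members and 4.04% lower. Of these 106 calls, 27 were made again in another random draw of the thinned UMIs, and 22 held in that draw and without members of other lineages, 9 higher and 13 lower. Without library 1 the count of calls was 186, and without library 2 it was 169. Each run without a library or without members of other lineages also drew new UMIs for members that followed those left out. Such counts and ratios therefore carry a change of draw as well. S100a6 was at 37.5 CPM, on 3 UMIs, in Vcam1-detected members and at 539 CPM in the others (log2 ratio −3.85, −6.13 to −2.29). S100a4 had 0 UMIs against 212. Crip1, a LIM-domain protein, was at 150 against 655 CPM (−2.13, −3.09 to −1.31), and Spp1 at 438 against 1758 CPM (−2.01, −2.54 to −1.52). Without each library in turn these 4 genes stayed at least 2-fold lower, with Spp1 between −2.19 and −1.72.

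Higher in the Vcam1-detected members were St3gal6, a sialyltransferase, at 300.0 against 55.6 CPM (2.43, 1.62 to 3.22), Gdf15, a stress-induced TGF-beta family member (2.05, 1.51 to 2.58), and Ccl8 (1.43, 0.83 to 2.01). Without library 1 the ratio of St3gal6 was 1.19, and without library 4 that of Gdf15 was 1.18. Gdf15 was at 157 CPM in all members and 467 CPM in the other kept barcodes. By library the members held it at 125, 152, 204, 239 and 22.6 CPM, and free RNA at 106, 107, 207, 472 and 150 CPM. The part of tubule or free RNA in this split was not tested. Ccr2 was lower in the Vcam1-detected members (−1.16, −2.31 to −0.20), at −0.58 without library 3 and −3.63 without library 1. Vcam1-detected members made up 14.5%, 13.9%, 3.23%, 7.06% and 11.9% of the thinned members of libraries 1 to 5, so the split also carries differences between libraries.

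Ccr2 was detected in 115 thinned members, 34, 27, 31, 21 and 2 of them in libraries 1 to 5, or 14.0%, 12.5%, 25%, 24.7% and 4.76%. Of 1206 genes tested, 2.07% were at least 2-fold higher in the Ccr2-detected members and 2.40% lower. Of these 54 calls 17 were made again in the other draw and 11 held in both that draw and without members of other lineages. Without library 1 the count of calls was 83, and without library 2 it was 92. As in the Vcam1 split, runs that left members out also carry a change of draw. Plac8 was at 278 against 58.9 CPM (2.24, 1.5 to 2.97). S100a4 was at 704 against 221 CPM (1.68, 1.26 to 2.09), Fn1 at 278 against 94.3 CPM (1.56, 0.89 to 2.21) and Ccl6 at 1200.0 against 527 CPM (1.19, 0.89 to 1.48). Ccl4 was lower, at 2070 against 5274 CPM (−1.35, −1.55 to −1.16), and stayed at or beyond 2-fold without each library in turn. Tnf was also lower (−1.20, −2.07 to −0.44), but at −0.52 without library 1. S100a4 and S100a6 were thus low with Vcam1 and high with Ccr2, in splits of the same 709 members.

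**Figure D4:**
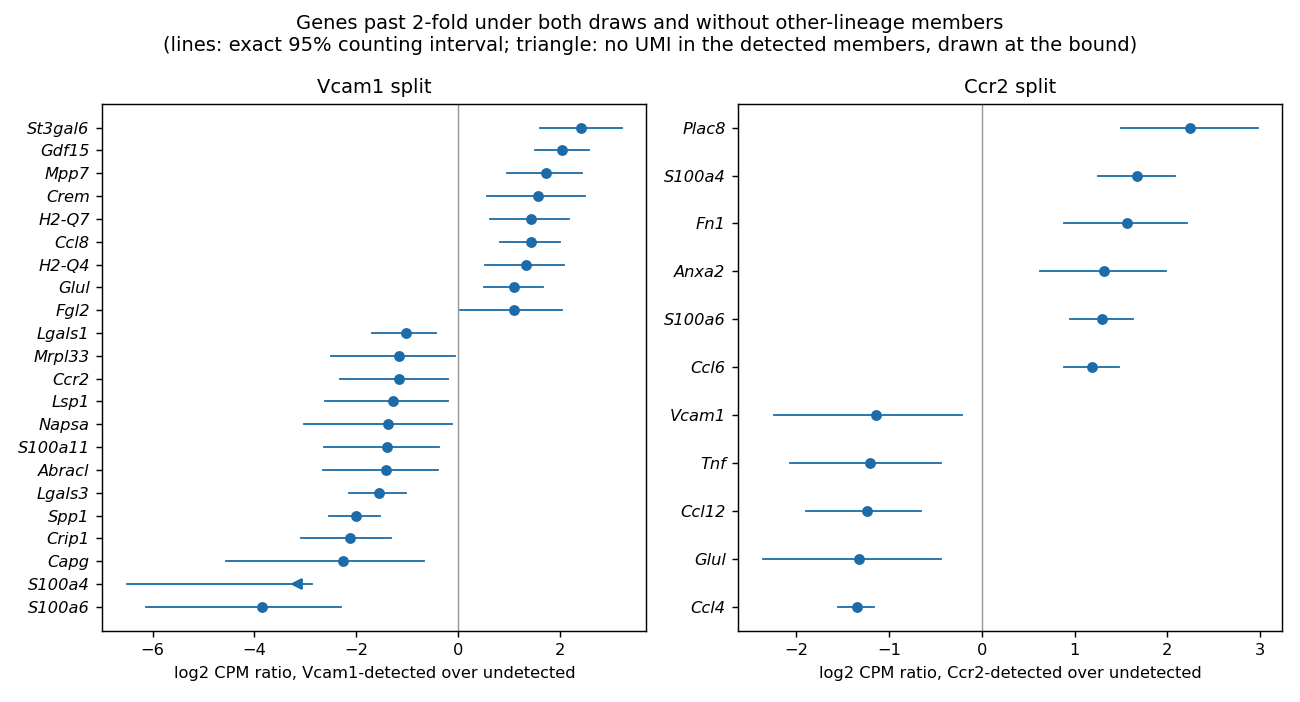
Log2 CPM ratio (horizontal axes) of genes at least 2-fold apart in both random draws and without members of other lineages, for Vcam1-detected over undetected members (left, 22 genes) and Ccr2-detected over undetected members (right, 11 genes), with exact 95% counting intervals. The triangle for S100a4 marks a bound from 0 UMIs, and S100a6 lay at −3.85 in the Vcam1 split and at 1.29 in the Ccr2 split. H2-Q4 and H2-Q7 are near copies whose reads may be split between them.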

How the data were processed

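The authors aligned reads of 5 libraries to mm10 with Cell Ranger (6.0 in the submitters' processing notes, 6.0.1 in the matrix header) and deposited 1 matrix of raw UMI counts of 32285 genes over 10474594 barcodes, with no cells called. No column belonged to other samples (0). From the deposited counts, UMIs of all barcodes of a group were summed and divided by the group's total (CPM). Intervals were exact at 95%: Poisson for CPM, conditional binomial for ratios, Clopper-Pearson for shares. Each UMI was taken as an independent draw, and variation from cell to cell is not in these intervals. A level of 0 was set at 3 counts for bounds, which are slightly tighter than the exact intervals. Since no library is tied to a condition, the 5 were summed as 1 sample by choice and no test was run, and called means at least 2-fold at a mean of at least 10 CPM (100 between libraries and in splits).

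Named genes were the 5 markers, members of the gene lists, the 15 genes with the highest and 10 with the lowest ratio at a mean of at least 50 CPM, the genes of the rule, and Clec4e and Tnf. Names outside this rule (genes found 2-fold apart between libraries or in the splits) were chosen after their values were seen. The members and lists were chosen with earlier results of these data known. No doublet caller was run. As an alternative, the 36 members with UMIs of another lineage were left out. The limits were at least 3 UMIs of T and NK, B, endothelial, fibroblast or distal tubule genes, or 10 of neutrophil genes. Proximal tubule, dendritic and erythroid genes were not used. Values without members of other lineages therefore keep members with proximal tubule transcripts. Alternatives were the limits on depth, mitochondrial share and C1q, low filters, the form of the average, thinning and leaving out each library. The calculations were tested on simulated counts, where the 2-fold rule also called unchanged genes against the 3 smaller groups, so counts of calls there include counting error. Python 3.11.15, numpy 2.4.6, scipy 1.17.1, pandas 2.3.3 and matplotlib 3.10.9 were used. The study's methods merge more matrices than the 5 libraries found here, so whether the mice of a sample were pooled before capture is not known. The study's other experiments were not analysed here.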

Additional observations from a re-analysis of the deposited data

How the results depend on the processing

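No paired test of members against other cells over the libraries was run, and ratios within libraries are given in its place. Of 275 single-gene ratios over all other barcodes under an alternative, 109 moved and 0 reversed. Leaving out each library in turn gave 531 to 748 members. The counts of genes past 2-fold depended on the low filter. With a mean of at least 50 CPM, 563 genes in place of 1450 were higher than in all other barcodes, 218 in place of 981 higher and 141 in place of 407 lower than in Gpnmb-positive barcodes, 212 in place of 737 higher and 219 in place of 657 lower than in monocytes, and 303 in place of 1200 higher and 188 in place of 587 lower than in dendritic cells. With no filter these counts were 8039, 1778, 2381, 1754, 1874, 2072 and 2375, in the same order. The monocyte group rests on library 3, and without each library 578 to 1037 genes were lower than in monocytes, the most without library 3. At a mean of at least 200 CPM the Vcam1 split gave 31 genes in place of 106, the Ccr2 split 15 in place of 54, and 312 in place of 671 genes were 2-fold apart between libraries (alternatives for the last were chosen after seeing the data). With members thinned to 1000 UMIs, 808 of 1214 genes were 2-fold apart between libraries. Without each library the counts were 97 to 186 for the Vcam1 split, 51 to 92 for the Ccr2 split and 434 to 625 between libraries, the lowest of these without library 5. In the splits these runs also carry a change of draw. Without thinning a UMI was found in 86.6% of members for H2-Eb1, 21.7% for Vcam1, 31.7% for Ccr2, 48.6% for Cx3cr1, 38.8% for Trem2, 11% for Clec4e and 35.5% for Tnf. The log2 ratio of Bgn over Gpnmb-positive barcodes, a lower bound on 0 UMIs there, fell to −0.18 without members of other lineages. A bound below 0 gives no direction. Equal weights for libraries gave no value against Gpnmb-positive barcodes, since no library held 20 of both. The cause of these changes was not tested, apart from the smaller number of genes under a higher filter. Depth limits library 5 most, where 0 UMIs of 88522 allow up to 33.9 CPM.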
